A study of Mus musculus with 2 samples.

Results

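The immunoglobulin co-receptors of T cells were examined in regulatory T (Treg) cells sorted from mouse muscle after injury. The set held 10 genes, chosen by name: Ctla4, Icos, Cd28, Pdcd1, Btla, Tigit, Cd96, Cd226, Lag3 and Havcr2. All 10 were among the 23337 gene symbols of the count table, and 9 of them reached a level of 5 CPM (counts per 1000000 counts of the library) in either library. Both groups were 8-week-old male mice carrying the Foxp3-IRES-GFP reporter on the C57BL/6 background, in which green fluorescent protein is made from the Foxp3 locus and marks Treg cells. In the IL-33 group, the tibialis anterior, quadriceps and gastrocnemius received cardiotoxin, a snake venom toxin that destroys muscle fibres, together with 0.3 ug of recombinant IL-33, an alarm cytokine of damaged tissue. In the PBS group the same muscles received cardiotoxin and saline. Treg cells were double-sorted 4 days after injury, 5000 per library, and each group was 1 library. The labels do not say how many mice gave the cells of a library. There was therefore no test, no standard error and no p-value, and every interval below covers counting error alone. In what follows, values "with IL-33" and "with PBS" are those of the 2 libraries, and higher and lower compare these libraries, not the treatments.

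T cells read their antigen through the T cell receptor, and co-receptors of the immunoglobulin superfamily decide how strongly they answer. CD28 and ICOS give activating signals, while CTLA-4, PD-1 (Pdcd1) and BTLA inhibit. CTLA-4 takes the ligands CD80 and CD86 away from CD28 and is needed for Treg cells to suppress. TIGIT, CD96 and CD226 share ligands of the nectin family, and of these CD226 activates and TIGIT inhibits. LAG-3 binds MHC class II, and TIM-3 (Havcr2) is an inhibitory receptor of activated T cells.

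These members stand for the results that follow: Ctla4, the member with the highest level, Tigit, the only member 2-fold or more higher with IL-33, and Btla, the only member 2-fold or more lower there. The 250 bases before their RefSeq transcription starts (GRCm38.p6, gene strand, 5′ to 3′) are printed so that these genes can be recognised, with matches to any of 6 short motifs in capitals.
Ctla4, chr1:60908775-60909024, plus strand: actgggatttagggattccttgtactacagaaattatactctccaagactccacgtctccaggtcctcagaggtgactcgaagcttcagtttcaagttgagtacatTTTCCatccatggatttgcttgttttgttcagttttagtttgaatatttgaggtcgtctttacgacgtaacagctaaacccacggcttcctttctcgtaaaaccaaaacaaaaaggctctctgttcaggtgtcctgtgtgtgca
Tigit, chr16:43664185-43664434, minus strand: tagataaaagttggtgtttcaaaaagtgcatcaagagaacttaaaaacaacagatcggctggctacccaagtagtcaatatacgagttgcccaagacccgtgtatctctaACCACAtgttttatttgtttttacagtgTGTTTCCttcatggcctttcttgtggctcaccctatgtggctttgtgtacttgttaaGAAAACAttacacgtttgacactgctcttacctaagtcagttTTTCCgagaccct
Btla, chr16:45224087-45224336, plus strand: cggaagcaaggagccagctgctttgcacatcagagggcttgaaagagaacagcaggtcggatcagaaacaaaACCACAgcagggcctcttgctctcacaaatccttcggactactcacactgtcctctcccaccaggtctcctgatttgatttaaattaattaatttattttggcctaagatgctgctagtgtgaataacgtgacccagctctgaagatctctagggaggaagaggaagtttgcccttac
The motifs, searched on both strands, were the NFAT core GGAAA, AP-1 TGANTCA, forkhead TGTTTNC, RUNX TGTGGT, STAT5 TTCNNNGAA and the GATA-factor motif TGATAA. The Ctla4 window held 1 NFAT core match, the Tigit window 2 NFAT core, 2 forkhead and 1 RUNX match, and the Btla window 1 RUNX match. In Tigit, 1 forkhead match overlapped 1 NFAT core match. Of all 32851 RefSeq windows of this length, 55.6% held the NFAT core, 17.8% the forkhead motif and 14.0% the RUNX motif, against 6.75% for AP-1, 7.02% for STAT5 and 7.94% for GATA. Such a match is a run of letters and was not tied to any measurement here. In the GENCODE M21 annotation the Ctla4 window lies in an intron of a longer Ctla4 transcript, the last 22 bases of the Btla window lie in an exon of Btla, and the Tigit window lies in no gene on its strand.

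The IL-33 library held 4080791 counts and the PBS library 1573707, so that a single read adds 0.245 CPM with IL-33 and 0.635 CPM with PBS. Foxp3, which defines the sorted cells, was thinly counted, with 40 counts with IL-33 and 1 with PBS. Of the other Treg and T cell markers, Cd4 stood at 543 CPM with IL-33 and 526 CPM with PBS. Ikzf2, the factor Helios, stood at 1681 and 1925 CPM, but Cd3e only at 18.9 and 12.1 CPM. Of the 10 Treg markers in the table, 4 had a ratio interval above 1 and 4 had one below 1. Ratios were 1.26 for Cd3d, 0.721 for Il2ra and 0.592 for Lrrc32. Of the markers of CD8 T and NK cells, Cd8a, Ncr1, Klrb1c, Klra8, Klre1 and Xcl1 were at 0 in both libraries, while Cd8b1 had 88 counts with IL-33 and 21 with PBS (21.6 and 13.3 CPM, ratio 1.62, 0.995 to 2.74) and Gzma 10 and 0. The 6 fibroblast markers summed to 0 CPM with IL-33 and 66.1 CPM with PBS, and the 11 dendritic cell markers to 27.7 and 94.7 CPM. The 9 muscle markers summed to 4.66 CPM with IL-33 and 10.2 CPM with PBS, the 5 endothelial markers to 0.735 and 6.99 CPM, the 11 CD8 T and NK cell markers to 24.8 and 16.5 CPM, and the 10 Treg markers in the table to 6612 and 6832 CPM.

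The receptors of the CD28 family led the set and were nearly the same in both libraries for its 3 most abundant genes. Ctla4, the inhibitory receptor, had 25242 counts with IL-33 and 9829 with PBS, which is 6186 CPM (95% Poisson interval 6109 to 6262) and 6246 CPM (6123 to 6370). This placed it at rank 8 of all genes with IL-33 and rank 6 with PBS, among the most abundant transcripts of these cells. The ratio of CPM, IL-33 over PBS, was 0.990 (exact conditional 95% interval 0.968 to 1.01). Icos, the inducible costimulator, had 8119 counts with IL-33 and 3196 with PBS, or 1989.6 and 2031 CPM, and its ratio was 0.980 (0.940 to 1.02). Cd28, the main costimulator of resting T cells, had 1551 and 617 counts, or 380.1 CPM with IL-33 and 392 CPM with PBS, with a ratio of 0.969 (0.882 to 1.07). All 3 intervals held 1. With trimmed mean of M-values (TMM) scaling, which adds 0.12 to the log2 of every plain ratio and less on the CPM + 1 scale for low genes, these ratios were 1.08 (1.05 to 1.10) for Ctla4, 1.07 (1.02 to 1.11) for Icos and 1.05 (0.960 to 1.16) for Cd28, so they have no settled direction.

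Pdcd1, which encodes the inhibitory receptor PD-1, and Btla were lower with IL-33. Pdcd1 had 528 counts with IL-33 and 283 with PBS, or 129 CPM (119 to 141) and 179.8 CPM (159 to 202). Its ratio of 0.719 (0.622 to 0.834) lay below 1 beyond counting error and within 2-fold. Btla, an inhibitory receptor that binds HVEM, had 88 counts with IL-33 and 93 with PBS, the deeper library holding the fewer. That is 21.6 CPM (17.3 to 26.6) with IL-33 and 59.1 CPM (47.7 to 72.4) with PBS, and the intervals do not overlap. The Btla ratio was 0.365 (0.270 to 0.494). B cells also express Btla, and the 7 B cell markers summed to 34.6 CPM with IL-33 and 33.7 CPM with PBS. Most of that was Cd79b, at 29.7 and 23.5 CPM. Cd22, on the same side as Btla, had 7 counts with IL-33 and 9 with PBS (ratio 0.300, 0.0949 to 0.905). Ms4a1 had 2 counts with IL-33 and 1 with PBS, and Pax5 was at 0 in both libraries. Dendritic cells can carry Btla as well, and the markers of that list did not move one way. H2-Aa was at 4.41 CPM with IL-33 and 61.6 CPM with PBS, H2-Ab1 had 7 and 19 counts, and Itgax 0 and 19. Siglech had 28 counts with IL-33 and 2 with PBS (ratio 5.4, 1.36 to 46.8), Zbtb46 had 18 and 0, and Xcr1 42 and 12 (1.35, 0.698 to 2.82), while Flt3, Clec9a, Batf3, Cd209a and Cd74 were at 0 in both. The part of other cells in the Btla difference was not tested. In such bulk libraries, fewer cells of a type and less RNA per cell cannot be told apart.

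**Figure D1:**
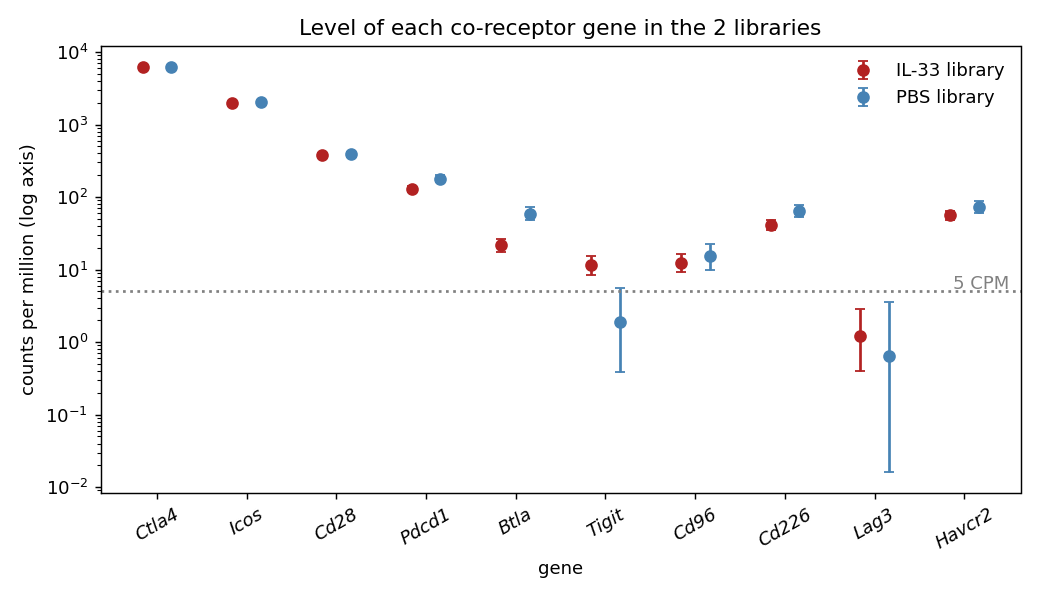
Level of each co-receptor gene in CPM on a log axis (points) with its 95% Poisson interval (bars), IL-33 left and PBS right for each gene, with a dotted line at 5 CPM. Ctla4, Icos and Cd28 sit at nearly equal heights in both libraries, Btla sits lower with IL-33 (21.6 against 59.1 CPM), and Tigit sits higher there (11.5 against 1.91 CPM).

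Among the receptors that share nectin-family ligands, Tigit alone was higher with IL-33, on few counts. Tigit, the inhibitory member, had 47 counts with IL-33 and 3 with PBS, or 11.5 CPM (8.46 to 15.3) and 1.91 CPM (0.393 to 5.57). At the depth of the PBS library, the IL-33 level would correspond to 18.1 counts, against the 3 seen. The ratio was 6.04, with an interval from 1.94 to 30.3. Cd226, the activating counterpart, had 170 counts with IL-33 and 102 with PBS, or 41.7 CPM (35.6 to 48.4) and 64.8 CPM (52.8 to 78.7), and its ratio was 0.643 (0.50 to 0.830). Cd96, a receptor for CD155 (Pvr), had 51 counts with IL-33 and 24 with PBS, or 12.5 and 15.3 CPM, a ratio of 0.819 (0.495 to 1.39) that held 1. Read within a library, which removes the library total from the comparison, there were 0.276 Tigit counts per Cd226 count with IL-33 (0.196 to 0.384) and 0.0294 with PBS (0.00597 to 0.0884). The odds ratio between the libraries was 9.36 (exact interval 2.89 to 48.2). Tigit per Cd96 count gave an odds ratio of 7.27 (2.01 to 40.2), and Cd96 per Cd226 count gave 1.27 (0.720 to 2.30). Of 6 such pairs compared, the 2 that hold Tigit had intervals that left out 1.

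The remaining pairs were formed within the CD28 family, and their balance was nearly equal in the libraries. There were 16.3 Ctla4 counts for each Cd28 count with IL-33 (15.5 to 17.1) and 15.9 with PBS (14.7 to 17.3), an odds ratio of 1.02 (0.926 to 1.13). Ctla4 counts per Icos count were 3.11 with IL-33 and 3.08 with PBS (odds ratio 1.01, 0.964 to 1.06), and Icos counts per Cd28 count were 5.23 and 5.18 (1.01, 0.911 to 1.12). These pair ratios do not depend on how the libraries are scaled. The 3 genes are neighbours on mouse chromosome 1 (GRCm38): Cd28 at 60716800 to 60773359, Ctla4 at 60887000 to 60915832 and Icos at 60977927 to 61000320, all on the plus strand. The gaps between them are 114 kb and 62.1 kb, with 0 protein-coding genes in either gap. Pdcd1 lies farther along the same chromosome, at 94038305 to 94052553 on the minus strand. Tigit, Btla and Cd96 also share a chromosome, 16, with 1560.2 kb and 21 protein-coding genes between Tigit and Btla and 778 kb and 11 such genes between Btla and Cd96. These 3 had ratios of 6.04, 0.365 and 0.819, the last with an interval that held 1. Their mean levels were 6.71, 40.3 and 13.9 CPM, below those of the chromosome 1 neighbours. At such levels 2-fold differences were more common among all genes. GENCODE places a processed pseudogene, Rpl18-ps1, inside Ctla4 on its strand, and it is not a row of the table, so whether any Ctla4 counts came from ribosomal protein reads was not tested.

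**Figure D2:**
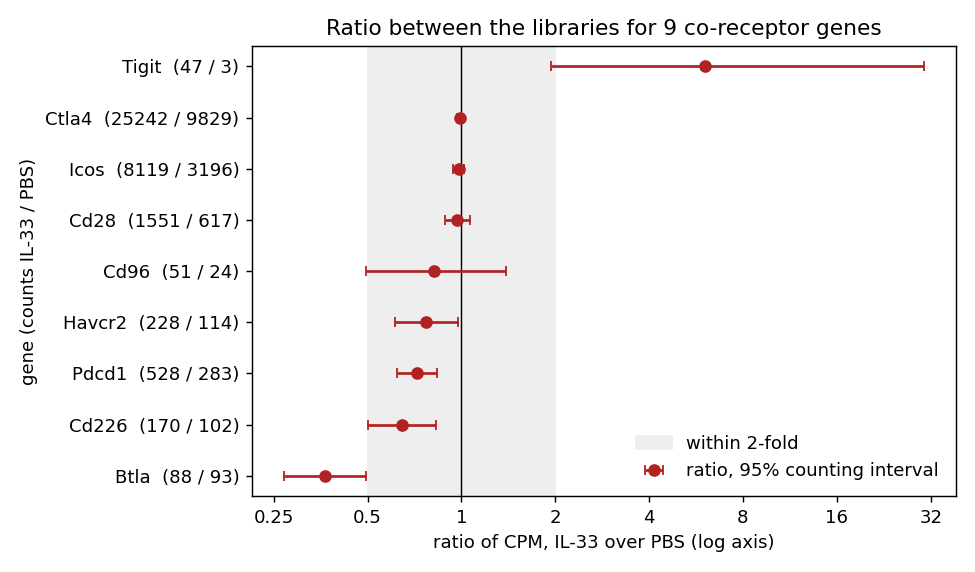
Ratio of CPM, IL-33 over PBS, on a log axis for the 9 genes over 5 CPM (points) with exact 95% counting intervals (bars), the counts of the IL-33 and PBS libraries beside each name, and the 2-fold range shaded. Tigit lies above 2 with a wide interval, Btla lies below 0.5, and the other 7 lie within 2-fold.

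Lag3 was barely counted, while Havcr2, the gene of TIM-3, held place 5 of the 10 members per kilobase in both libraries. Lag3 had 5 counts with IL-33 and 1 with PBS, or 1.23 CPM (0.398 to 2.86) and 0.635 CPM (0.0161 to 3.54). It was under 5 CPM in both, and its ratio of 1.93 ran from 0.216 to 91.2, so no difference was detectable at this depth. Havcr2 had 228 counts with IL-33 and 114 with PBS, or 55.9 CPM (48.9 to 63.6) and 72.4 CPM (59.8 to 87.0). Its ratio of 0.771 (0.613 to 0.974) came close to 1, and with TMM scaling the interval held 1 (0.839, 0.667 to 1.06). Dendritic cells and macrophages also express Havcr2. The 12 monocyte and macrophage markers summed to 54.2 CPM with IL-33 and 57.8 CPM with PBS, but single markers lay apart. Lyz2 was at 19.1 CPM with IL-33 and 38.8 CPM with PBS (ratio 0.493, 0.348 to 0.701), Itgam at 16.2 and 7.63 CPM (2.12, 1.14 to 4.31), and Mrc1 had 17 counts with IL-33 and 0 with PBS. Cd68 and Fcgr1 were at 0 in both, and Csf1r had 1 count in each. Their part in the Havcr2 level was not tested.

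Levels of different genes were compared per kilobase of the longest annotated transcript. This assumes that reads cover all transcripts evenly, which was not tested in these amplified libraries. On that measure the order with IL-33 was Ctla4, Icos, Cd28, Pdcd1, Havcr2, Tigit, Cd226, Btla, Cd96 and Lag3. Ctla4 stood at 3199.98 CPM per kb with IL-33 and 3231 CPM per kb with PBS, Icos at 614 and 627, Cd28 at 87.4 and 90.2, and Pdcd1 at 67.0 and 93.2. The first 5 genes were separated by non-overlapping intervals with IL-33, and so was Havcr2 from Tigit. Tigit (12.5 CPM per kb), Cd226 (9.27), Btla (6.63) and Cd96 (5.72) could not each be separated from the next in this order. In the PBS library Pdcd1 and Cd28 overlapped at places 3 and 4, Btla (18.2) and Cd226 (14.4) followed Havcr2 (26.6) with intervals that overlapped in turn, and Tigit (2.07) came next to last, its interval overlapping those of Cd96 and Lag3. Tigit thus held place 6 with IL-33 and place 9 with PBS. With the union of all exons as the length, Pdcd1 and Cd28 exchanged places with IL-33, and this is the only change of order. Which neighbours were separated also changed. With IL-33, Pdcd1 (61.4 to 73.0) and Cd28 (59.0 to 65.3) then overlapped. With PBS, Pdcd1 and Cd28 no longer overlapped, and neither did Havcr2 and Btla. The genes of the whole table nearest to Ctla4 in level in both libraries were Actb, H2-K1 and Rps4x, and those nearest to Icos were Rpl4, Rpl17 and the predicted gene Gm1821, by distance between log2(CPM + 1) values over the 2 libraries.

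Among the 9 members over 5 CPM, 1 was at least 2-fold higher with IL-33 (Tigit), 1 at least 2-fold lower (Btla) and 7 within 2-fold, on the scale of log2(CPM + 1), which understates differences of low genes. Of all 9005 genes over the same level, 15.5% were 2-fold or more higher and 16.3% 2-fold or more lower. The scatter depends on the level. Of the 1928 genes averaging 2.5 to 10 CPM, the class of Tigit, 37.2% were 2-fold or more higher. The filter itself raises this share, since a gene averaging near 2.5 CPM must differ between the libraries to reach 5 CPM in either. Tigit passed it through the IL-33 library alone (11.5 against 1.91 CPM). Of the 3511 genes with 10 to 50 CPM, the class of Btla, 19.5% were 2-fold or more lower. Of the 2576 genes with 50 to 200 CPM, the class of Pdcd1, Havcr2 and Cd226, 10.9% differed by 2-fold in either direction. Among the 990 genes averaging at least 200 CPM, the class of Ctla4, Icos and Cd28, 2.22% differed by 2-fold in either direction, and the median distance of the log2 fold from 0 was 0.25, against distances of 0.01, 0.03 and 0.04 for these 3 members. The median log2 fold was -0.27 over the 9 members and -0.08 over all 9005 genes. With TMM scaling both medians moved up, to -0.16 over the members and 0.05 over all genes. Of the 9 members, 8 lay below 0, against 54.4% of all genes. With TMM scaling 5 members did, since Ctla4, Icos and Cd28 moved above 0. The share of all genes below 0 was not computed with that scaling.

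By counting error alone, 1 member had an interval above 1 (Tigit) and 4 had one below 1 (Pdcd1, Btla, Cd226 and Havcr2). Of all 9005 genes, 28.6% had an interval above 1 and 35.1% one below 1. With TMM scaling 3 members lay above 1 (Tigit, Ctla4 and Icos) and 3 below (Pdcd1, Btla and Cd226). The shares of all genes were computed for the library totals only, not for TMM scaling. Pooled over their counts, the 10 members took 0.883% of counts with IL-33 (95% interval by Wilson's method 0.874 to 0.892) and 0.906% with PBS (0.892 to 0.921). The inhibitory members other than Ctla4 (Pdcd1, Btla, Tigit, Lag3 and Havcr2) summed to 219.6 CPM with IL-33 and 314 CPM with PBS, a ratio of 0.699 (0.626 to 0.782). The activating members Icos, Cd28 and Cd226 summed to 2411 and 2488 CPM, a ratio of 0.969 (0.934 to 1.01). These sums were grouped after the values were seen, and Pdcd1 holds most of the first and Icos most of the second. The first sum depends on leaving out Ctla4, an inhibitory gene at 6186 and 6246 CPM with a ratio of 0.990. Within that sum, Tigit went the other way (6.04). TMM scaling adds 0.12 to the log2 of both ratios.

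**Figure D3:**
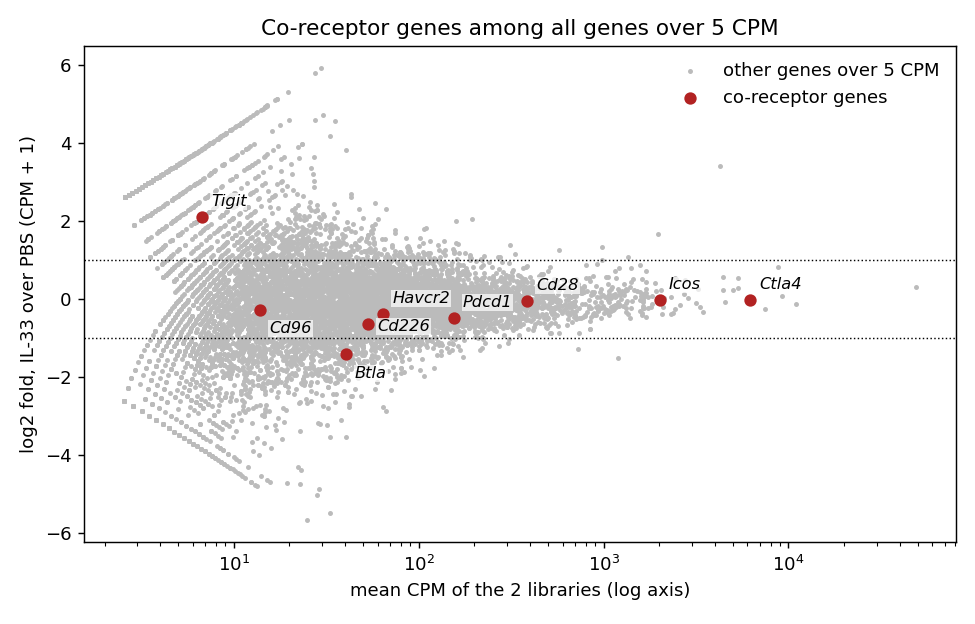
Log2 fold of IL-33 over PBS, on CPM + 1, against the mean CPM of the 2 libraries on a log axis for each gene over 5 CPM (grey points) with the co-receptor genes in red, and dotted lines at 2-fold. Ctla4, Icos and Cd28 lie near 0 at the abundant end, and Tigit and Btla lie past 2-fold where many grey points do too.

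The ligands of these receptors are usually carried by antigen-presenting and tissue cells. Of 15 ligand genes, 8 were over 5 CPM, 1 of them 2-fold or more higher with IL-33, 1 lower and 6 within 2-fold, with a median log2 fold of -0.19. Among all genes over 5 CPM, 15.5% were 2-fold or more higher and 16.3% lower, and the median was -0.08. With TMM scaling, under which Cd80 falls below 5 CPM, 0 ligand genes were lower. The ligand median was then 0.14, against 0.05 over all genes, so the list has no settled direction. Cd86, a ligand of both CD28 and CTLA-4, was the higher gene, with 102 counts with IL-33 and 3 with PBS, or 25 and 1.91 CPM, a ratio of 13.1 (4.36 to 64.6). Its partner Cd80 had 0 counts with IL-33 and 8 with PBS, with a ratio interval from 0 to 0.226. The 2 ligands of CTLA-4 and CD28 therefore stood on opposite sides, both on few counts. Dendritic cells and B cells carry both, and the dendritic cell markers given above lay on both sides as well, H2-Aa, H2-Ab1 and Itgax lower with IL-33 and Siglech and Zbtb46 higher. Their part in these counts was not tested. The PD-1 ligand Cd274 stood at 88.2 CPM with IL-33 and 118 CPM with PBS, a ratio of 0.750 (0.627 to 0.901). Pdcd1lg2, which encodes the other PD-1 ligand, was at 55.1 and 48.9 CPM, with a ratio of 1.13 (0.866 to 1.48). Pvr, the CD155 ligand shared by TIGIT, CD96 and CD226, was at 46.3 CPM with IL-33 and 75.6 CPM with PBS, a ratio of 0.612 (0.484 to 0.777). The galectin gene Lgals3 had a ratio of 0.581 (0.464 to 0.730) and Lgals9, a reported TIM-3 ligand, 1.19 (1.02 to 1.40). Hmgb1, also a reported TIM-3 ligand, was the most abundant of the list, at 534 and 525 CPM. Icosl, the ligand of ICOS, had 0 counts with IL-33 and 1 with PBS, and Tnfrsf14, which encodes the BTLA ligand HVEM, had 5 and 0.

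Proteins that bind the receptor tails or signal next to them were within 2-fold for 21 of 23 genes, and 2 were lower with IL-33. Of all genes over 5 CPM, 15.5% were 2-fold or more higher and 16.3% lower. The median was -0.27 for the list and -0.08 for all genes. With TMM scaling these medians were -0.15 and 0.05. Vav1, an exchange factor downstream of CD28, stood at 83.1 CPM with IL-33 and 182 CPM with PBS, a ratio of 0.457 (0.389 to 0.537). Sh2b3, an adaptor, had 1 count with IL-33 and 14 with PBS, a ratio of 0.0275 (0.000651 to 0.181). Pik3r5, a regulatory subunit of phosphoinositide 3-kinase, stood at 31.4 CPM with IL-33 and 62.9 CPM with PBS, with a ratio of 0.499 (0.381 to 0.655) that stayed within 2-fold with the pseudocount. The abundant kinase genes differed less, with ratios of 0.875 (0.807 to 0.95) for Lck, 1.01 (0.924 to 1.12) for Fyn and 0.858 (0.780 to 0.944) for Prkch.

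Genes that carry CTLA-4 between its vesicles and the cell surface had 0 higher, 2 lower and 11 within 2-fold of 13 over 5 CPM. Of all genes over 5 CPM, 15.5% were 2-fold or more higher and 16.3% lower. The list median was -0.18, or -0.06 with TMM scaling. Lrba, which protects CTLA-4 from degradation, stood at 183 CPM with IL-33 and 222 CPM with PBS, a ratio of 0.823 (0.724 to 0.937). Ap2b1, a subunit of the AP-2 adaptor that takes up CTLA-4, was lower, at 19.4 and 46.4 CPM (0.417, 0.300 to 0.582). Pld1, a phospholipase, had 4 counts with IL-33 and 20 with PBS (0.0771, 0.0192 to 0.230). Pld2, under 5 CPM in both libraries, had 15 counts with IL-33 and 0 with PBS. Without a floor the list had 1 gene higher and 2 lower. Def6, which works with the recycling machinery of CTLA-4, stood at 49.0 CPM with IL-33 and 31.1 CPM with PBS, a ratio of 1.57 (1.15 to 2.2). The endocytosis genes Arf6 (0.947, 0.868 to 1.03) and Cltc, the clathrin heavy chain (0.978, 0.883 to 1.09), had intervals that held 1. The shedding and turnover list holds the proteases Adam10 and Adam17, the ubiquitin ligase Cblb and the mRNA decay factor Rc3h1. It had 0 higher and 0 lower of 7 and a median of -0.10, or 0.02 with TMM scaling. Adam10 stood at 184 CPM with IL-33 and 169.7 CPM with PBS, Cblb at 124 and 139 CPM, and Rc3h1 at 142 and 152 CPM. Cbl was at 103 CPM with IL-33 and 112 CPM with PBS, and Furin had 47 and 10 counts, with a ratio of 1.81 (0.904 to 4.02).

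Other co-receptor and adhesion genes of T cells had a median of 0.00 over 19 genes, or 0.12 with TMM scaling. Of these, 1 was higher, 2 lower and 16 within 2-fold, against 15.5% higher and 16.3% lower of all genes over 5 CPM. Cd101, under 5 CPM in both libraries, had 18 counts with IL-33 and 0 with PBS. Without a floor the list had 2 genes higher and 2 lower. Cd7 was higher on 28 counts with IL-33 and 4 with PBS, though its ratio of 2.70 ran from 0.944 to 10.6. Lair1, an inhibitory collagen receptor, was lower, at 4.17 CPM with IL-33 and 16.5 CPM with PBS (0.252, 0.128 to 0.483). Timd2 had 0 counts with IL-33 and 12 with PBS, with a ratio interval from 0 to 0.139. Of the abundant genes, Cd48, a ligand and adhesion partner of CD2, stood at 464 CPM with IL-33 and 266 CPM with PBS (1.74, 1.57 to 1.94). The other abundant genes lay nearer to 1: Cd2, an adhesion receptor, stood at 1019.9 CPM with IL-33 and 897 CPM with PBS (1.14, 1.07 to 1.21), Spn at 557 and 629 CPM (0.885, 0.821 to 0.954) and Cd47 at 457 and 497 CPM (0.919, 0.845 to 1.0). Transcription factors known to act on co-receptor genes had 1 higher (Foxp3) and 1 lower of 15. Their median was -0.23, or -0.11 with TMM scaling. The lower one was Tcf7, a factor of naive T cells, with 5 counts with IL-33 and 11 with PBS (0.175, 0.0477 to 0.547). Maf stood at 651 CPM with IL-33 and 899 CPM with PBS (0.724, 0.679 to 0.773), Foxo1 at 201 and 308 CPM (0.653, 0.583 to 0.732), Nr4a1 at 235 and 257 CPM (0.915, 0.814 to 1.03), and Nr4a2 at 80.4 and 48.3 CPM (1.66, 1.29 to 2.17).

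**Figure D4:**
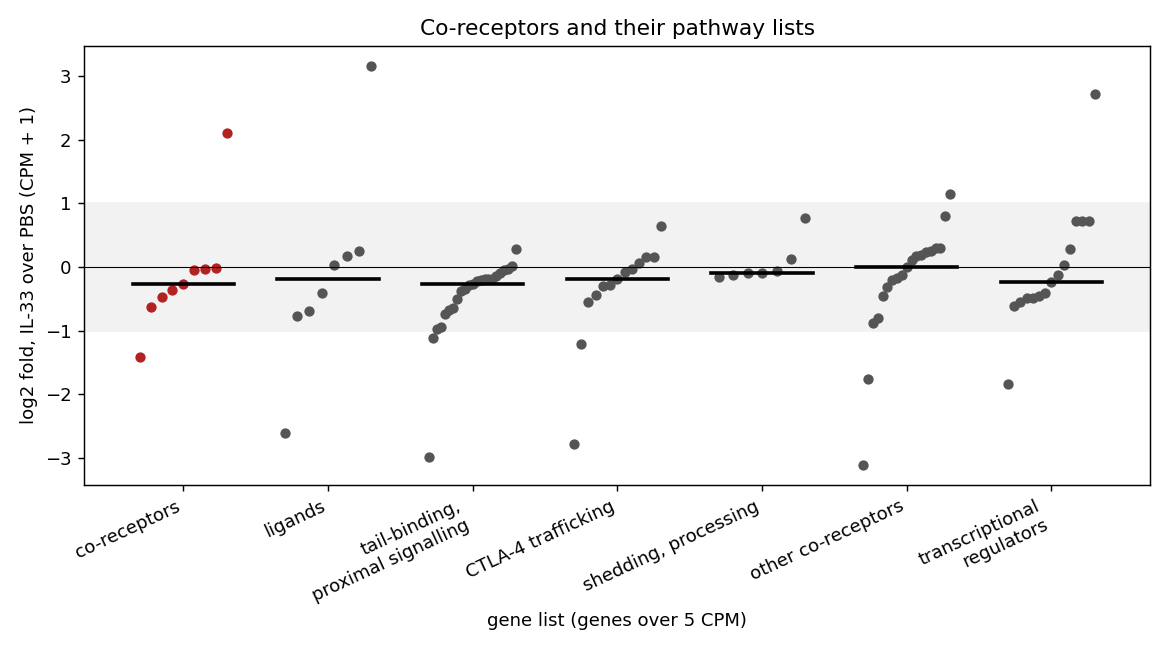
Log2 fold of IL-33 over PBS, on CPM + 1, for each gene over 5 CPM in the co-receptor set (red) and in the 6 pathway lists (grey), with the list median as a black bar and the 2-fold range shaded. The medians lie between -0.27 and 0.00, and most genes of each list lie within 2-fold.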

How the data were processed

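The authors deposited 1 table of raw counts, as whole numbers, with a row for each of 23337 gene symbols and a column for each of 2 libraries. Both columns were used, matched by name to the samples' titles. The submitters' processing notes name TopHat2 2.0.10, Cufflinks 2.2.1 and mm10. The counting program, annotation and the use of strand were not given in the sources used here. The labels' protocols describe amplified cDNA without molecular identifiers, so reads are not independent molecules.

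Counts were divided by the library total to give CPM. Genes at 5 CPM or more in either library were compared on log2 of CPM plus a pseudocount of 1 and called at 2-fold. Ratios carry exact conditional 95% intervals, and a count of 0 is read as up to 3 counts. Of 189 symbols in the 6 pathway lists, 8 marker lists and the member list, 185 matched the table. The signalling list also holds Pdk1, a metabolic kinase. From each list, the 3 genes farthest from 0 and the 3 most abundant were eligible to be named, for Ctla4 and Icos the 3 genes nearest in level, and any further gene was picked with its values in view. The members and lists were chosen with earlier results of these data known. Positions and lengths came from GENCODE M21 (GRCm38, the assembly that mm10 names) and promoters from RefSeq, where 6 members had a window that was used. Python 3.11.15, scipy 1.17.1, pandas 2.3.3 and R 4.3.3 with edgeR 4.0.16 (scaling factors alone) were used, and the computation was tested on simulated data.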

Additional observations from a re-analysis of the deposited data

How the results depend on the processing

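With 1 library per group, leaving out a library was not possible, and treatment and library cannot be told apart. The depth limits Tigit in the PBS library, Lag3 in both and every gene listed at 0, where up to 3 counts are allowed (0.735 CPM with IL-33, 1.91 CPM with PBS).

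The single member 2-fold or more higher and the single one lower remained 1 and 1 under other scalings, other pseudocounts and no floor. A floor of 20 CPM leaves out Tigit, so that 0 members were higher, and a threshold of 1.5-fold gave 2 lower. The member median was -0.16 with TMM, with median of ratios and without a floor, and -0.37 at a floor of 20 CPM. Over all genes, the medians in these settings were 0.05, 0.04, 0.03 and -0.10. Members below 0 numbered 5 in place of 8 with TMM, with median of ratios and with the 20 most abundant genes left out of the total. Members with a counting interval above 1 numbered 3 in place of 1 with TMM and with median of ratios. Genes of the 6 pathway lists at 2-fold or more numbered 11, against 3 at a floor of 20 CPM, where fewer genes are compared, and 27 at 1.5-fold. Of all 9005 genes over 5 CPM, 1399 (15.5%) were 2-fold or more higher and 1466 (16.3%) lower. Over all genes these numbers were 595 and 737 at a floor of 20 CPM, and 2116 and 2465 at 1.5-fold. The order of levels per kb changed for 2 entries with union exon lengths. Transcript length cancels in the odds ratios of the pairs, so levels per kb are no check of them. The counts on interval sides and below 0 were added after the values were seen.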
